A study of Mus musculus with 24 samples.

Results

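The clustered histone genes are the 69 genes of the deposited tables whose symbols begin with Hist1 to Hist4 followed by the histone class, out of 26636 genes with a single entry in all. By class they comprise 6 genes of the linker histone H1 and 19 H2A, 19 H2B, 12 H3 and 13 H4 genes, and by cluster 55 genes of Hist1, 10 of Hist2, 3 of Hist3 and 1 of Hist4. RNA was sequenced from neural progenitor cells, the dividing cells of the embryonic cortex that give rise to neurons and glia, isolated from C57BL/6 mouse embryos at day 12, grown in basic fibroblast growth factor and taken at passage 3. In differentiation medium the cells received (+)-JQ1, which keeps BET bromodomain proteins from binding acetylated histones, or its inactive mirror image (−)-JQ1, at 0.2 or 0.5 µM for 12 or 24 h. The 8 groups are therefore (+)-JQ1 at 0.2 and 0.5 µM for 12 h and for 24 h, and (−)-JQ1 at the same doses and times, each with 3 libraries from 3 separate preparations of cells, 24 libraries in all. All groups were in differentiation medium, and cells without either enantiomer were not analysed here. The comparisons of the enantiomers at matched dose and time address what blocking BET bromodomains does to the RNA of these cells.

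Histone proteins package DNA: an octamer of H2A, H2B, H3 and H4 forms the core of the nucleosome, and H1 binds the linker DNA between cores. Most genes of the clusters are replication-dependent, that is, transcribed mainly in S phase from many near-identical, intronless copies, and H2A and H2B genes often lie as divergent pairs that share the DNA between their starts. Their mRNAs are unusual in that most end in a short stem-loop instead of a poly(A) tail, and the stem-loop binding protein Slbp holds that end during processing, translation and decay. The libraries here were made from RNA selected for poly(A), so the values describe what such a selection retained.

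The stem-loop was read from the annotated transcripts to show how alike the ends of these messages are and whether the annotation runs past them. The letters GGCNCTTTTNAGNGCC, searched on the transcript strand, were found in 42 of the 69 members, as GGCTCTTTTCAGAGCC in 26, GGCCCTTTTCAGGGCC in 7, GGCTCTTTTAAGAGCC in 6, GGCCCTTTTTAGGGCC in 2 and GGCTCTTTTTAGAGCC in 1. The 42 include genes of all 5 classes, and the H4 genes among them carry the forms with GGCCC. In the lines below, from the GENCODE transcripts of build GRCm38, 5′ to 3′, capitals mark the stem-loop and lower case the flanking bases. Hist4h4, called in no comparison, is shown with members that rose.
Hist1h1c: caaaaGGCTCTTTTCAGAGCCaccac
Hist2h2aa1: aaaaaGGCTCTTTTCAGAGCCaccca
Hist2h2ac: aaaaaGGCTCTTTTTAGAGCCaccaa
Hist1h2bk: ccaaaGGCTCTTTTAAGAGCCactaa
Hist2h3c1: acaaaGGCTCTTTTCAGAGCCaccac
Hist1h4n: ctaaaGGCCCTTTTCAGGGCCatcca
Hist1h4i: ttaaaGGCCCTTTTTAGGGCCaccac
Hist4h4: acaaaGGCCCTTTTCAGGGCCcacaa

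Promoters were compared because the members moved together, and 61 members had one in the RefSeq table of build GRCm38.p6, which spans 250 bases before to 50 after the start. Each motif was searched on both strands and counted on its own. The windows of divergent H2A and H2B pairs overlap, so the same site can count for both genes. The TATA box (TATAAA) was in 57.4% of the 61 member promoters, against 14.2% of 27025 promoters of all genes. The CCAAT box (CCAAT) was in 85.3% against 37.9%, and the octamer (ATTTGCAT) in 21.3% against 1.75%. The CCAAT box was in each of the 6 H1, 17 H2A, 16 H2B and 10 H3 promoters and in 3 of 12 H4 promoters, and the octamer was in 7 H2A and 6 H2B promoters only among these 61. The 4 promoters below belong to Hist2h2bb (chr3:96269450-96269749, plus strand), Hist1h2ac (chr13:23683910-23684209, minus strand), Hist1h4i (chr13:22041313-22041612, minus strand) and Hist4h4 (chr6:136804382-136804681, minus strand), read 5′ to 3′ on the gene's own strand. They are a member with one of the largest rises, a Hist1 H2A gene with all 3 motifs, the H4 gene with the highest level, and the Hist4 gene, which passed in no comparison. Capitals mark matches to the 3 motifs on either strand, and Hist4h4 holds none of these letters in its window.
Hist2h2bb promoter: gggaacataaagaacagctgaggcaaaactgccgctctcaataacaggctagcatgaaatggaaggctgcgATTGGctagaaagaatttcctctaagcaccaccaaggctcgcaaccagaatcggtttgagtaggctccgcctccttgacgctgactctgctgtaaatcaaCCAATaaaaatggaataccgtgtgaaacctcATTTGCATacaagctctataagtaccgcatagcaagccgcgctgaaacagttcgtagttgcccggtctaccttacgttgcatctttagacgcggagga
Hist1h2ac promoter: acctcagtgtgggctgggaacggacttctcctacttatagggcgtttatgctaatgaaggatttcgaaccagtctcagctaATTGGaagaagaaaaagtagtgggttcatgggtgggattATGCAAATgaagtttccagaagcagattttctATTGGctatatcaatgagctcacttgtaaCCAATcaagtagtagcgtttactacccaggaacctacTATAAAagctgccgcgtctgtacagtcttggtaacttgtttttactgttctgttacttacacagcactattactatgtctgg
Hist1h4i promoter: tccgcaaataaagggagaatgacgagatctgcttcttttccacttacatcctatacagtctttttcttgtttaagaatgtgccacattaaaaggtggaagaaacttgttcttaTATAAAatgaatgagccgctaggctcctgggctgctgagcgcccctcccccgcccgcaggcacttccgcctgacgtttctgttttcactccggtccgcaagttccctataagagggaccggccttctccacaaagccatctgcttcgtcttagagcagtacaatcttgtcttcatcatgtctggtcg
Hist4h4 promoter: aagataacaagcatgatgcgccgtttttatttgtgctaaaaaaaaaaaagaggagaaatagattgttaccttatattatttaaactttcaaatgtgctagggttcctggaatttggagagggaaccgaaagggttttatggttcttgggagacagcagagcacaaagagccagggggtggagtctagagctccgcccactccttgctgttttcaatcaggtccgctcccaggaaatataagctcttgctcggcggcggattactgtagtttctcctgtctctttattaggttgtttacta

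Values were FPKM (reads scaled to gene length and to the mapped reads of the library), so levels can be set side by side between genes per length, but the number of reads behind them is unknown. Judged by the smallest steps between values, relative depth ranged from 0.947 to 1.06. FPKM summed to 431766 to 870653 per library, and 16953 to 18201 genes were above 0. Summed FPKM was highest in 2 libraries that stood apart in 1 gene: the microRNA gene Mir5105 held 46.9% of all FPKM in (+) library 2 and 42.7% in (−) library 1, both of 0.2 µM and 24 h, and no more than 6.69% in any other. The third (−) library at 0.2 µM and 24 h came next in summed FPKM, with 570329 against at most 498038 in the other 21. All 10 markers of neural progenitors (Nes, Sox2 and others) passed the filter on low values, while the markers of microglia and of red cells stayed below 1 FPKM in every library. The filter was also passed by all 9 oligodendrocyte, all 6 astrocyte and 5 of 6 neuron markers, so it does not single out progenitors. Wherever 4 values are listed, the comparisons at 12 h come first and those at 24 h second, with 0.2 µM before 0.5 µM at each time. Hexim1, an inhibitor of the elongation factor P-TEFb that BET inhibitors commonly raise, rose in all 4 (log2 1.52, 1.88, 1.30 and 1.67, each ± 0.09 SE).

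Clustered histone genes of all 5 classes rose in (+)-JQ1 at both doses and both times. Of 67 tested members, 60, 63, 55 and 63 were called higher and 0 lower, by limma on log2(FPKM + 1), where a call is an adjusted p (Benjamini-Hochberg over 13801 genes) under 0.05. The background was 8.23%, 12.2%, 11% and 13.7% of all genes tested called higher and 19.6%, 26.1%, 21.8% and 24.5% called lower. The median log2 fold change of the tested members was 1.49, 1.88, 1.30 and 1.47, beside -0.07, -0.10, -0.07 and -0.05 over all genes tested. In all 4 comparisons 53 members were called higher, 9 in 3 of them, 1 in 2 and 4 in none. The log2 fold change was at least 1 in all 4 comparisons for 42 members, and 49 of the 69 members had all 12 (+) libraries above all 12 (−) libraries. For these counts over all 4 comparisons, the share of all genes tested is not given here. Since the cells were harvested in bulk, a change in the number of cells of a type and a change in RNA per cell cannot be told apart. Scaling the libraries by the median of ratios moved the split over all genes from 1136 higher and 2710 lower to 1798 and 2267, from 1682 and 3599 to 2628 and 3001, from 1523 and 3006 to 2501 and 2443, and from 1893 and 3380 to 2723 and 2935. The shift this gave to the all-gene median was at most 0.102, and the members called higher under it were 61, 64, 61 and 64.

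**Figure D1:**
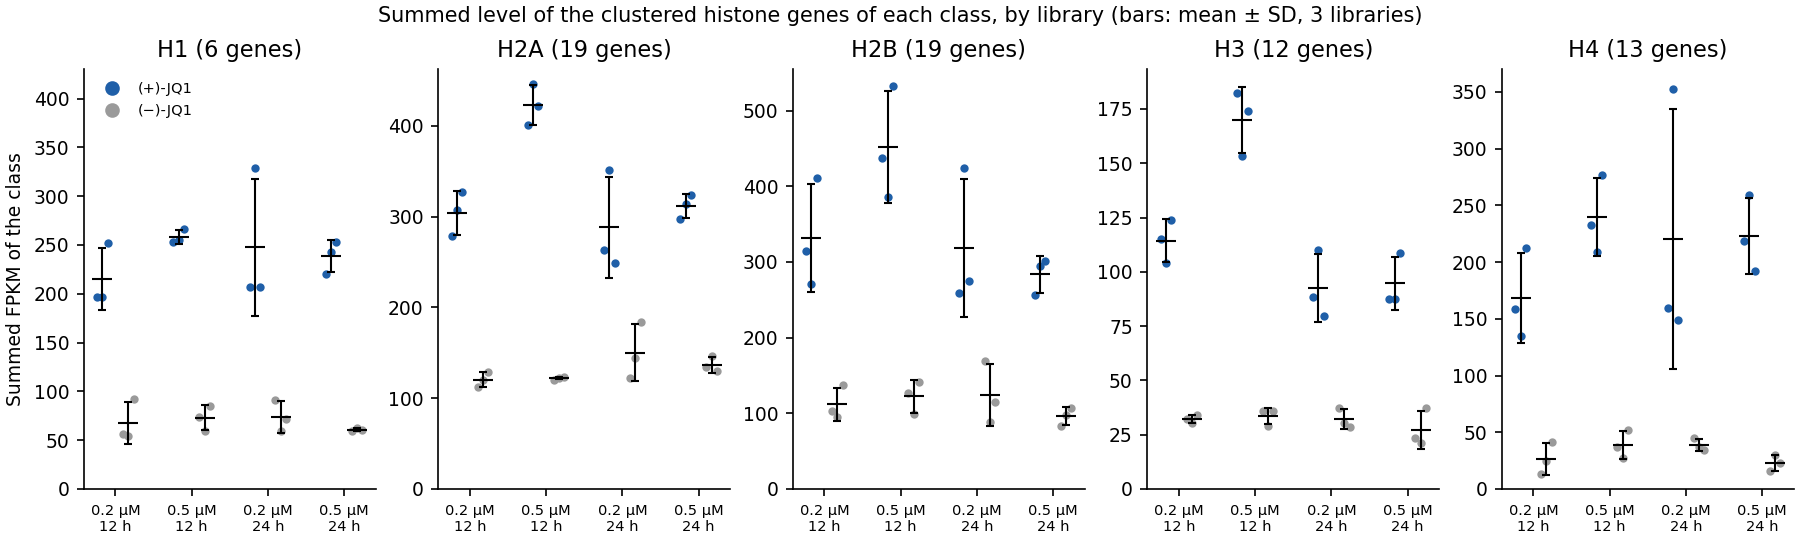
Summed FPKM of the genes of each histone class (vertical axes, from 0) by dose and time (horizontal axes). Blue points are (+)-JQ1 libraries, grey points (−)-JQ1 libraries, and bars the mean ± SD of 3 libraries. In all 5 classes the 12 (+) libraries lie above the 12 (−) libraries, and at 0.2 µM and 24 h library 2 of (+)-JQ1 is the highest of its group in each class.

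Summed over all 69 genes, the clustered histone RNA stood at 960 to 1672 FPKM in the 12 (+) libraries (median 1189) and at 315 to 465 FPKM in the 12 (−) libraries (median 359). The lowest (+) library was thus above the highest (−) library. The ratio of the mean sums was 3.16, 3.96, 2.79 and 3.35. The classes did not take equal parts in it: H4 genes held 16.9% ± 2.91 of the member sum in (+) and 8.21% ± 2.21 in (−)-JQ1 (SD, n = 12 each), and H2A genes 26.7% ± 2.27 in (+) and 35.5% ± 5.62 in (−)-JQ1. H1, H2B and H3 held 19.4% ± 1.89, 27.6% ± 2.49 and 9.38% ± 1.53 in (+) and 18.1% ± 1.48, 29.8% ± 3.35 and 8.35% ± 1.33 in (−)-JQ1. No test was run on these sums.

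H1 genes code for the linker histones that close the nucleosome and compact chromatin. Of 5 tested H1 genes, 4, 5, 5 and 5 were called higher, with a median log2 fold change of 1.61, 1.72, 1.68 and 1.88. The H1 sum was 215 ± 31.8, 258 ± 7.09, 247 ± 70.3 and 239 ± 16.4 FPKM in (+) and 67.5 ± 21.3, 72.8 ± 12.8, 73.9 ± 16.2 and 60.8 ± 1.73 FPKM in (−)-JQ1 (SD, n = 3 each). Most of it was Hist1h1c, the member with the highest level of all, which averaged 136 FPKM over the 24 libraries. At 12 h Hist1h1c had 172, 175 and 215 FPKM in (+) and 51.8, 50.8 and 83.4 in (−)-JQ1 at 0.2 µM, and 216, 221 and 223 in (+) and 68.5, 55.0 and 77.1 in (−)-JQ1 at 0.5 µM. At 24 h it had 178, 297 and 177 FPKM in (+) and 85.0, 54.9 and 66.3 in (−)-JQ1 at 0.2 µM, and 193, 215 and 219 in (+) and 52.5, 56.8 and 54.9 in (−)-JQ1 at 0.5 µM. The groups did not overlap at any dose or time, and the 297 FPKM belong to the second (+) library, which is one of those with high Mir5105. Its log2 fold change was 1.61, 1.72, 1.63 and 1.91 (each ± 0.20 SE, adjusted p = 2.55e-06, 5.72e-07, 2e-06 and 1.13e-07).

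Hist1h1e, another main linker histone gene, averaged 10.7 FPKM over the 24 libraries. At 12 h it had 14.8, 14.3 and 20.6 FPKM in (+) and 3.16, 2.34 and 5.24 in (−)-JQ1 at 0.2 µM, and 22.5, 20.6 and 26.0 in (+) and 3.44, 2.59 and 4.67 in (−)-JQ1 at 0.5 µM. The 24 h libraries had 15.5, 16.3 and 14.8 FPKM in (+) and 4.03, 2.53 and 3.35 in (−)-JQ1 at 0.2 µM, and 15.9, 14.6 and 16.3 in (+) and 5.14, 3.39 and 4.55 in (−)-JQ1 at 0.5 µM. Every (+) library was above every (−) library (log2 1.97, 2.41, 1.96 and 1.64, each ± 0.20 SE). Hist1h1d rose by log2 1.57, 1.72, 1.68 and 2.07 (each ± 0.22 SE). Hist1h1a, present at 0.152 to 1.52 FPKM in (−)-JQ1, reached 2.08 to 7.87 FPKM in (+)-JQ1 (log2 2.01, 2.03, 2.49 and 1.88, each ± 0.28 SE). Hist1h1b rested on few reads: multiplied by each library's relative depth, its values above 0 came to whole multiples, 1 to 12, of a step of 0.182 FPKM to within 0.230%. It was listed at 0 in all 6 (−) libraries at 0.5 µM, against 0.686, 1.20 and 1.83 FPKM in (+) at 12 h and 0.367, 1.49 and 0.918 in (+) at 24 h. Hist1h1b may thus have been tested through (+)-JQ1 alone. Hist1h1t, the linker histone of the testis, was above 0 in 12 libraries, at no more than 0.852 FPKM, and did not reach the filter.

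**Figure D2:**
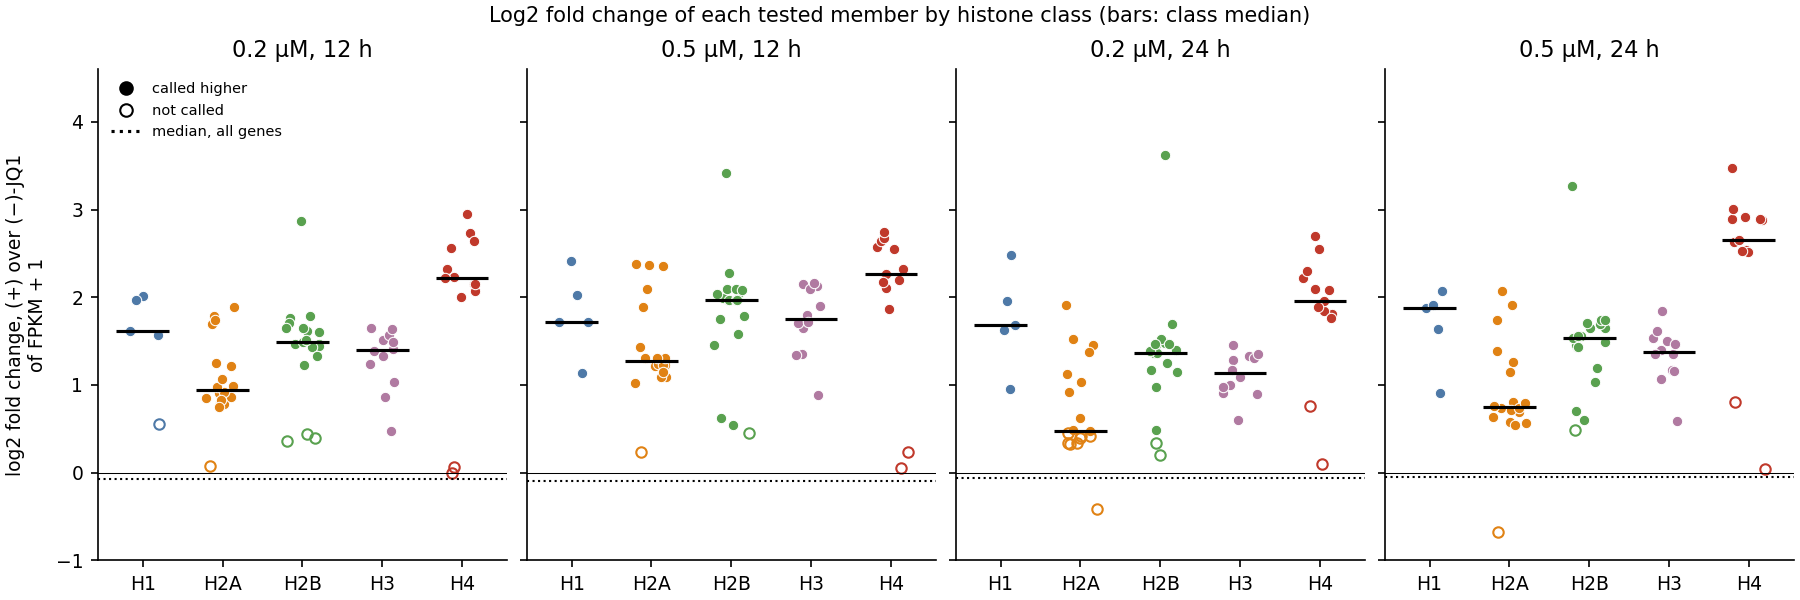
Log2 fold change of FPKM + 1, (+) over (−)-JQ1 (vertical axis), of each tested member by histone class (horizontal axis), in 4 panels by dose and time. Filled points were called higher, open points were not called, bars are class medians and the dotted line is the median of all genes tested. H4 genes have the highest class median and H2A genes the lowest in each panel.

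H2A genes code for the core histone that pairs with H2B on the outside of the nucleosome. Of 18 tested, 17, 17, 10 and 17 were called higher, with a median log2 fold change of 0.95, 1.27, 0.48 and 0.75. The class sum was 304 ± 24.3, 423 ± 22.3, 288 ± 55.7 and 312 ± 13.1 FPKM in (+) and 121 ± 8.25, 122 ± 1.33, 150 ± 31.4 and 137 ± 8.43 FPKM in (−)-JQ1 (SD, n = 3 each). The highest level was that of Hist2h2aa1, with which its duplicate Hist2h2aa2 shares 100% of its 50-base stretches, so the 2 cannot be fully told apart. At 12 h Hist2h2aa1 had 68.2, 75.3 and 81.7 FPKM in (+) and 23.8, 21.5 and 22.2 in (−)-JQ1 at 0.2 µM, and 119, 123 and 107 in (+) and 22.03, 23.2 and 19.4 in (−)-JQ1 at 0.5 µM. Its values at 24 h were 59.9, 76.6 and 59.8 FPKM in (+) and 21.5, 24.0 and 20.5 in (−)-JQ1 at 0.2 µM, and 66.6, 76.6 and 85.0 in (+) and 16.6, 19.6 and 22.3 in (−)-JQ1 at 0.5 µM. The (−) libraries stayed within 16.6 to 24.0 FPKM, below every (+) library. Its log2 fold change was 1.69, 2.38, 1.52 and 1.91 (each ± 0.12 SE, adjusted p = 1.42e-09, 4.37e-12, 5.03e-09 and 6.77e-11), and that of Hist2h2aa2 1.79, 2.35, 1.46 and 1.74 (each ± 0.15 SE).

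Hist3h2a, the H2A gene of the small Hist3 cluster, changed less and with little spread. At 12 h it had 45.4, 51.3 and 49.7 FPKM in (+) and 21.5, 22.6 and 24.2 in (−)-JQ1 at 0.2 µM, and 55.5, 67.1 and 54.4 in (+) and 23.8, 22.96 and 22.7 in (−)-JQ1 at 0.5 µM. After 24 h it stood at 45.0, 51.1 and 41.6 FPKM in (+) and 24.5, 19.5 and 27.8 in (−)-JQ1 at 0.2 µM, and 45.9, 46.7 and 52.2 in (+) and 21.8, 20.4 and 21.2 in (−)-JQ1 at 0.5 µM. Again no (+) library overlapped a (−) library (log2 1.07, 1.31, 0.92 and 1.15, each ± 0.11 SE).

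The H2A genes of the Hist1 cluster cannot be read one by one. In 12 of the 13 tested, 6.50% to 56.8% of the 50-base stretches of the transcript occur in no gene elsewhere. The remainder is shared mostly among these genes, except in Hist1h2al, so a 50-base read often has several origins. How such reads were assigned was not given in the sources used here. Their log2 fold changes reached from 0.07 to 1.25, 0.24 to 1.88, -0.41 to 1.029 and -0.68 to 1.26, with 11, 11, 4 and 11 of the 12 called higher. Hist1h2al, annotated as a processed pseudogene in GENCODE, had the top value in each. It shares 65.5% of its 50-base stretches with Hist2h2aa1, a gene of the Hist2 cluster. Hist1h2ac, whose transcript is 88.4% unique, had log2 1.88, 2.37, 1.91 and 2.07 and passed in all 4. The lowest values were those of Hist1h2ao, 6.50% unique, which had the highest mean of the 12 and passed in no comparison. At 12 h Hist1h2ao had 10.8, 14.97 and 13.8 FPKM in (+) and 9.005, 12.6 and 16.6 in (−)-JQ1 at 0.2 µM, and 10.4, 14.9 and 15.8 in (+) and 8.67, 12.2 and 13.6 in (−)-JQ1 at 0.5 µM. At 24 h it had 12.0, 7.96 and 9.76 FPKM in (+) and 3.14, 25.7 and 25.9 in (−)-JQ1 at 0.2 µM, and 11.1, 10.8 and 12.2 in (+) and 23.3, 17.7 and 15.9 in (−)-JQ1 at 0.5 µM. The 3.14 FPKM come from the (−) library with high Mir5105: without that library the log2 fold change at 0.2 µM and 24 h was -1.31 (adjusted p = 0.000166), against -0.41 ± 0.48 SE with it (adjusted p = 0.545). At 0.5 µM and 24 h the 3 (+) libraries were below the 3 (−) libraries (log2 -0.68 ± 0.48 SE, adjusted p = 0.297), and the value passed (adjusted p = 0.00947) when both libraries with high Mir5105 were left out. Its near copy Hist1h2ap, which shares 93.1% of its 50-base stretches with Hist1h2ao, had log2 0.75, 1.14, 0.34 and 0.55. Hist1h2aa did not reach the filter.

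H2B genes code for the partner of H2A. Of 19 tested, 16, 18, 17 and 18 were called higher, with a median log2 fold change of 1.49, 1.97, 1.37 and 1.53. The class sum was 332 ± 71.9, 452 ± 74.0, 319 ± 91.1 and 284 ± 24.6 FPKM in (+) and 112 ± 22.3, 122 ± 21.4, 124 ± 41.5 and 95.9 ± 12.0 FPKM in (−)-JQ1 (SD, n = 3 each). The highest level was that of Hist1h2bc. At 12 h Hist1h2bc had 107, 74.8 and 147 FPKM in (+) and 29.8, 22.3 and 40.4 in (−)-JQ1 at 0.2 µM, and 154, 99.4 and 167 in (+) and 37.4, 24.8 and 43.0 in (−)-JQ1 at 0.5 µM. The 24 h libraries had 81.1, 87.7 and 89.8 FPKM in (+) and 30.3, 22.1 and 26.2 in (−)-JQ1 at 0.2 µM, and 66.9, 84.2 and 96.0 in (+) and 22.5, 25.9 and 34.0 in (−)-JQ1 at 0.5 µM. All (+) libraries were above all (−) libraries (log2 1.78, 1.97, 1.69 and 1.56, each ± 0.25 SE, adjusted p = 1.84e-05, 3.15e-06, 3.06e-05 and 4.88e-05). The 15 H2B genes of Hist1 were all called higher in each comparison, within log2 1.23 to 1.78, 1.46 to 2.27, 0.97 to 1.69 and 1.028 to 1.74. In 11 of these 15 genes, 0% to 59.9% of the 50-base stretches occur in no gene elsewhere, so the 15 calls are not independent. Hist1h2bq and Hist1h2br share 100% of their 50-base stretches and cannot be told apart.

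The H2B genes outside Hist1 spread most. Hist2h2bb, whose transcript shares no 50-base stretch with a gene elsewhere, was among the 2 members with the largest log2 fold change in each comparison. The 2 genes whose spans overlap that of Hist2h2bb were not counted in this. At 12 h Hist2h2bb had 31.6, 33.3 and 39.0 FPKM in (+) and 2.50, 3.22 and 6.70 in (−)-JQ1 at 0.2 µM, and 44.2, 57.2 and 54.2 in (+) and 4.18, 2.94 and 4.81 in (−)-JQ1 at 0.5 µM. Its values at 24 h were 29.5, 54.4 and 33.5 FPKM in (+) and 4.14, 0.857 and 2.25 in (−)-JQ1 at 0.2 µM, and 34.3, 35.8 and 47.3 in (+) and 2.49, 3.72 and 3.28 in (−)-JQ1 at 0.5 µM. The lowest (+) value, 29.5 FPKM, was far above the highest (−) value, 6.70 FPKM (log2 2.87, 3.42, 3.63 and 3.27, each ± 0.31 SE). Hist2h2be of the same cluster, which shares none either and overlaps no other gene, had log2 0.36, 0.54, 0.48 and 0.70 (each ± 0.15 SE). It passed in the last 3 (adjusted p = 0.0867, 0.00725, 0.0182 and 0.000936).

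In the Hist3 cluster Hist3h2ba was high in all groups. At 12 h it had 33.4, 44.8 and 33.6 FPKM in (+) and 26.3, 29.1 and 25.9 in (−)-JQ1 at 0.2 µM, and 39.2, 55.0 and 46.2 in (+) and 31.7, 28.3 and 29.1 in (−)-JQ1 at 0.5 µM. After 24 h it stood at 38.9, 68.99 and 38.8 FPKM in (+) and 50.8, 22.9 and 43.3 in (−)-JQ1 at 0.2 µM, and 36.0, 36.9 and 40.2 in (+) and 19.9, 29.7 and 25.3 in (−)-JQ1 at 0.5 µM. The groups overlapped at 0.2 µM and 24 h only. Its log2 fold change of 0.43, 0.63, 0.34 and 0.59 (each ± 0.23 SE, adjusted p = 0.185, 0.0379, 0.279 and 0.049) passed at 0.5 µM, and neither call was firm: leaving out any 1 of 5 single libraries in each case, or testing with no filter on low values (adjusted p = 0.0614 and 0.0755), ended it. With the replicate number as a block, the call at 0.5 µM and 24 h was lost too (adjusted p = 0.0574), and that at 0.5 µM and 12 h held (adjusted p = 0.0448). Hist3h2bb-ps, a pseudogene of the cluster, had log2 0.39, 0.45, 0.20 and 0.48 (each ± 0.20 SE) and passed in none. The interval at 0.5 µM and 24 h reached from 0.07 to 0.89 (95%).

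H3 genes code for the core histone whose tail carries many of the acetyl and methyl marks of chromatin. All 12 tested H3 genes were called higher in each of the 4 comparisons, with a median log2 fold change of 1.40, 1.75, 1.13 and 1.37. The class sum was 114 ± 9.84, 170 ± 15.01, 92.6 ± 15.6 and 94.6 ± 12.1 FPKM in (+) and 32.4 ± 1.90, 33.5 ± 3.85, 32.2 ± 4.69 and 27.3 ± 8.77 FPKM in (−)-JQ1 (SD, n = 3 each). The Hist2 genes Hist2h3c1, Hist2h3b and Hist2h3c2 led it. At 12 h Hist2h3c1 had 53.4, 46.9 and 51.5 FPKM in (+) and 17.1, 13.7 and 15.7 in (−)-JQ1 at 0.2 µM, and 84.7, 64.4 and 73.8 in (+) and 19.2, 13.8 and 16.97 in (−)-JQ1 at 0.5 µM. At 24 h it had 39.1, 30.3 and 36.7 FPKM in (+) and 12.0, 13.9 and 13.7 in (−)-JQ1 at 0.2 µM, and 38.1, 38.1 and 47.6 in (+) and 12.7, 11.6 and 19.2 in (−)-JQ1 at 0.5 µM. The lowest (+) value, 30.3 FPKM, was above the highest (−) value, 19.2 FPKM (log2 1.65, 2.09, 1.35 and 1.47, each ± 0.16 SE, adjusted p = 8.13e-08, 1.2e-09, 1.14e-06 and 1.93e-07).

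Hist2h3b, which shares 79.7% of its 50-base stretches with Hist2h3c1, moved by about as much. At 12 h it had 19.9, 19.9 and 19.7 FPKM in (+) and 5.63, 6.29 and 5.23 in (−)-JQ1 at 0.2 µM, and 30.7, 27.9 and 30.9 in (+) and 5.76, 5.43 and 7.08 in (−)-JQ1 at 0.5 µM. The 24 h libraries had 14.04, 26.4 and 13.2 FPKM in (+) and 9.66, 6.35 and 4.23 in (−)-JQ1 at 0.2 µM, and 16.8, 14.6 and 17.6 in (+) and 4.75, 3.80 and 7.20 in (−)-JQ1 at 0.5 µM. No (+) library was as low as a (−) library (log2 1.64, 2.13, 1.28 and 1.503, each ± 0.23 SE). Hist2h3c2 had log2 1.49, 2.16, 1.17 and 1.61 (each ± 0.16 SE) and Hist1h3d, the highest H3 gene of Hist1, 1.51, 2.16, 1.46 and 1.84 (each ± 0.26 SE).

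H4 genes code for the partner of H3 in the nucleosome core, and every one of them encodes nearly the same protein. Of 13 tested, 11 were called higher in each comparison, the 11 of the Hist1 cluster, with log2 fold changes of 2.00 to 2.95, 1.86 to 2.74, 1.76 to 2.70 and 2.52 to 3.47. In 6 of these 11, 10.2% to 59.6% of the 50-base stretches occur in no gene elsewhere, so the 11 calls are not independent. Hist1h4i had the highest level. At 12 h Hist1h4i had 32.2, 31.4 and 44.9 FPKM in (+) and 4.86, 6.29 and 10.3 in (−)-JQ1 at 0.2 µM, and 48.6, 41.0 and 53.2 in (+) and 6.13, 4.797 and 10.3 in (−)-JQ1 at 0.5 µM. Its values at 24 h were 43.1, 71.1 and 31.1 FPKM in (+) and 10.2, 7.88 and 9.19 in (−)-JQ1 at 0.2 µM, and 40.6, 49.6 and 43.2 in (+) and 3.29, 6.22 and 6.47 in (−)-JQ1 at 0.5 µM. The groups stood far apart, with the highest value, 71.1 FPKM, in the (+) library with high Mir5105 (log2 2.22, 2.64, 2.22 and 2.88, each ± 0.29 SE, adjusted p = 6.99e-06, 4.15e-07, 6.35e-06 and 1.15e-07).

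Hist1h4k, 28.5% unique, stayed at 0.539 to 4.85 FPKM in (−)-JQ1. At 12 h it had 25.7, 19.2 and 21.6 FPKM in (+) and 0.539, 2.80 and 3.50 in (−)-JQ1 at 0.2 µM, and 26.4, 30.1 and 29.8 in (+) and 4.51, 2.14 and 4.83 in (−)-JQ1 at 0.5 µM. After 24 h it stood at 19.2, 45.7 and 19.7 FPKM in (+) and 4.85, 2.69 and 2.31 in (−)-JQ1 at 0.2 µM, and 32.3, 41.4 and 24.8 in (+) and 1.51, 2.29 and 2.22 in (−)-JQ1 at 0.5 µM. It and Hist1h4m, Hist1h4n and Hist1h4i were the 4 highest H4 genes. Hist1h4m had log2 2.74, 2.74, 2.55 and 2.90 (each ± 0.42 SE), and Hist1h4n, with which it shares 89.8% of its 50-base stretches, 2.64, 2.55, 2.30 and 3.01 (each ± 0.43 SE). The H4 sum in the (+) library with high Mir5105 was 353 FPKM, against 159 and 149 FPKM in the other (+) libraries at 0.2 µM and 24 h. Without it the log2 ratio of the mean H4 sums there was 1.99, against 2.51 with it.

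The 2 H4 genes outside Hist1 passed in no comparison. Hist4h4 is the lone gene of its cluster, and its annotated transcript runs 2445 bases past the stem-loop. At 12 h Hist4h4 had 1.29, 1.32 and 1.27 FPKM in (+) and 1.37, 1.36 and 1.21 in (−)-JQ1 at 0.2 µM, and 0.972, 1.61 and 1.79 in (+) and 1.11, 1.27 and 1.69 in (−)-JQ1 at 0.5 µM. At 24 h it had 1.05, 1.22 and 0.995 FPKM in (+) and 1.04, 1.13 and 0.718 in (−)-JQ1 at 0.2 µM, and 1.62, 1.69 and 0.834 in (+) and 1.08, 1.82 and 1.01 in (−)-JQ1 at 0.5 µM. The enantiomers overlapped at both doses and times, and the 95% intervals of the log2 fold change were -0.34 to 0.32, -0.28 to 0.38, -0.24 to 0.42 and -0.29 to 0.38. A rise of the size seen in the Hist1 H4 genes lies outside these intervals, which hold on the log2(FPKM + 1) scale and understate the change of a gene near 1 FPKM. Hist2h4 was close to the detection limit: in the 13 libraries with a value above 0 it came, after multiplying by relative depth, to whole multiples, 1 to 6, of a step of 0.295 FPKM to within 0.231%. It was at 0 in all 6 (−) libraries at 24 h, against 0.577, 0.908 and 0.602 FPKM in (+) at 0.2 µM and 0, 1.80 and 0.889 in (+) at 0.5 µM. Hist2h4 reached 1 FPKM in (+) libraries only, so it was tested through (+)-JQ1 alone.

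**Figure D3:**
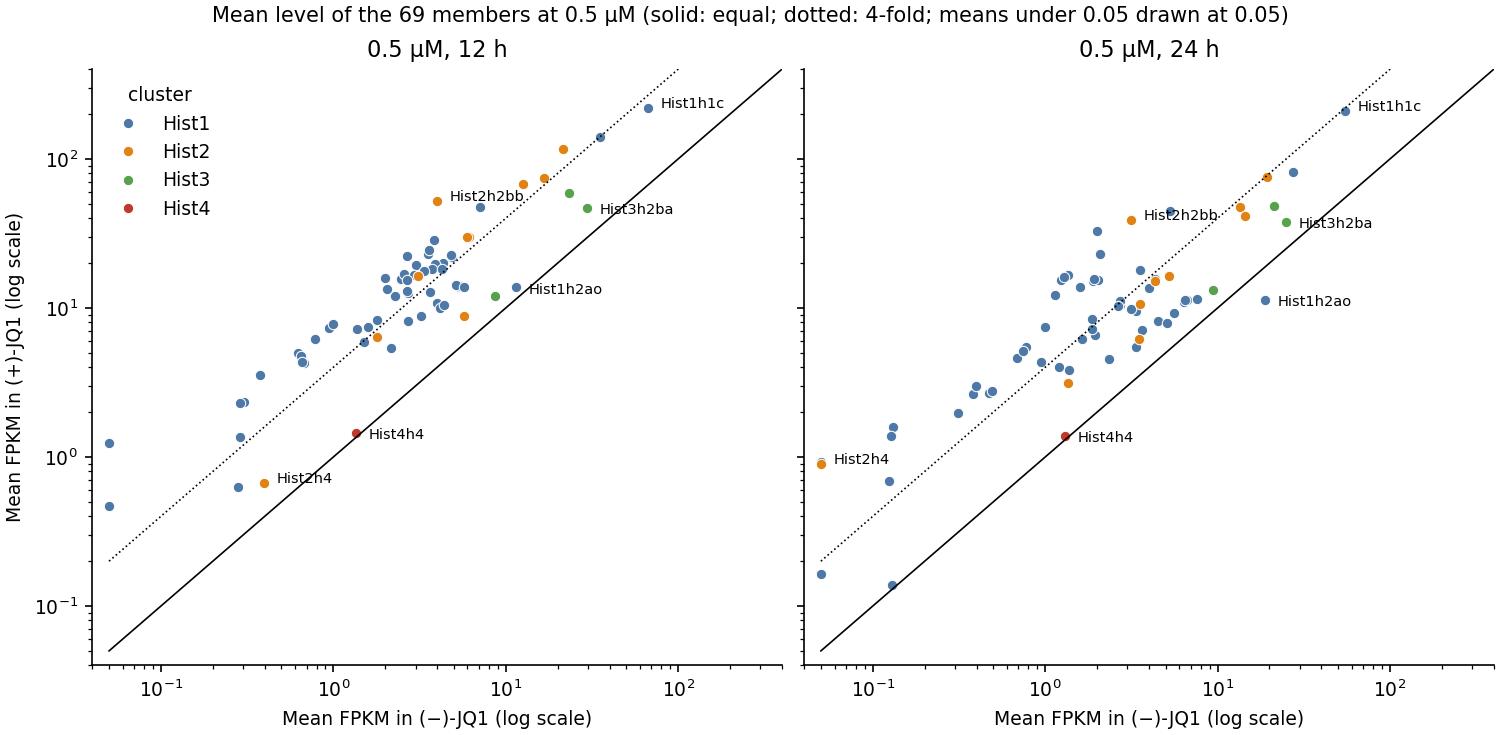
Mean FPKM of 3 (+)-JQ1 libraries (vertical, log scale) against that of 3 (−)-JQ1 libraries (horizontal, log scale) for the 69 members at 0.5 µM, by cluster. The solid line marks equal levels and the dotted line a 4-fold difference, and means under 0.05 are drawn at 0.05. Genes of Hist1 and Hist2 lie mostly above the solid line, on either side of the dotted line. At 24 h the ratio of the mean sums was 1.63 for the Hist1 H2A genes and 10.1 for the Hist1 H4 genes. Those of Hist3 and Hist4 lie below the dotted line, and Hist1h2ao falls below the solid line at 24 h.

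By cluster, the ratio of the mean sums in (+) over (−)-JQ1 was 3.45, 4.10, 3.04 and 3.64 for Hist1 and 3.50, 5.17, 3.20 and 3.73 for Hist2, beside 1.67, 1.92, 1.46 and 1.79 for Hist3 and 0.987, 1.07, 1.13 and 1.06 for the single gene of Hist4. The difference between clusters was not tested. Members were also grouped by how far their transcripts can be told from their copies. The median log2 fold change was 1.32, 1.51, 1.29 and 1.40 for the 10 tested members with at least 90% unique 50-base stretches (6, 8, 8 and 8 called higher). It was 1.41, 1.79, 1.30 and 1.35 for the 9 with under 10% (8, 8, 6 and 8 called higher). The 48 between had medians of 1.49, 1.97, 1.30 and 1.48 (46, 47, 41 and 47 called higher). These groups hold different classes, and the differences between them were not tested. By annotated 3′ end, the 20 tested members whose transcript runs at least 100 bases past the stem-loop had medians of 1.54, 1.88, 1.34 and 1.51. The 21 with less had 1.44, 1.97, 1.17 and 1.39, and the 26 with no match had 1.49, 1.84, 1.29 and 1.47.

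Divergent pairs allow genes with shared upstream DNA to be set side by side. In the annotation of GRCm38, 13 pairs of an H2A and an H2B gene start 173 to 306 bases apart, and both genes were tested in 12. The log2 fold change was larger for the H2B gene in 9 of 12 pairs in each comparison, with a median difference (H2B minus H2A) of 0.59, 0.82, 0.89 and 0.87. The 3 pairs with the larger change in H2A were Hist1h2ac with Hist1h2bc, Hist2h2ac with Hist2h2be and Hist3h2a with Hist3h2bb-ps. At 0.5 µM and 24 h, for example, Hist1h2ac had log2 2.07 and Hist1h2bc 1.56, and Hist2h2ac 1.38 and Hist2h2be 0.70. The 9 H2A genes of the other pairs are among the 12 that share much of their sequence, so their values are not independent of each other. Their H2B partners are 0% to 50.3% unique, and 2 of these, Hist1h2bq and Hist1h2br, share 100% of their 50-base stretches. The 9 pairs are therefore not independent on either side. Hist1h2ac and Hist2h2ac were singled out after their values were seen.

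**Figure D4:**
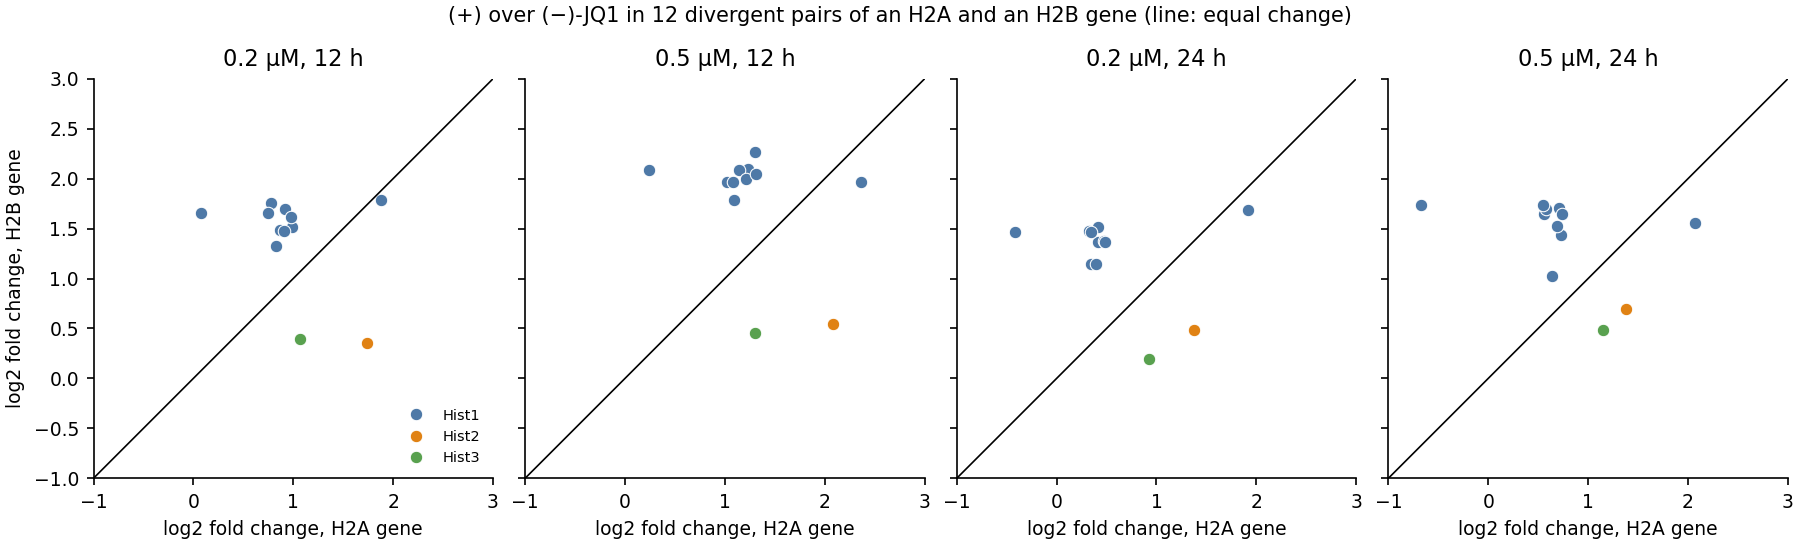
Log2 fold change of the H2B gene (vertical) against that of the H2A gene (horizontal), (+) over (−)-JQ1, in 12 divergent pairs, in 4 panels by dose and time. Colours mark the cluster and the line equal change. In each panel 9 pairs, all of Hist1, lie above the line and 3 below it.

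No member's response to (+)-JQ1 was called different between doses or between times. The effect of (+)-JQ1 at 0.5 against 0.2 µM was called for 0 members at 12 h and 0 at 24 h by limma, with 4 and 5 members higher and 0 lower at an unadjusted p under 0.05. The background of this test was small, with 0% called higher and 0.0435% lower at 12 h and 0.00725% and 0.283% at 24 h. The effect at 24 against 12 h was likewise called for 0 members at either dose, with 6 and 13 members lower and 0 higher at an unadjusted p under 0.05. Background was 0.00725% higher and 0.0145% lower at 0.2 µM, and 0.0725% and 0.254% at 0.5 µM. The median difference of the effect was 0.32 and 0.26 between doses (12 and 24 h) and -0.19 and -0.35 between times (0.2 and 0.5 µM), beside a median standard error of 0.33 for a single member.

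Within (+)-JQ1 at 12 h, 0.5 against 0.2 µM was called higher for 2 members, Hist2h2aa1 (log2 0.63 ± 0.12 SE, adjusted p = 0.0146) and Hist1h2al (log2 0.52 ± 0.12 SE, adjusted p = 0.0368), where 0.0362% of all genes were called higher and 0.609% lower. All 67 members were on the higher side there, with a median log2 of 0.46, and 27 had an unadjusted p under 0.05. Hist1h2al shares 65.5% of its 50-base stretches with Hist2h2aa1, so the 2 calls are not independent. Neither call remained without the first or the second library of either 12 h (+) group, 1 member was called without the third at 0.5 µM, and 4 were called without the 2 libraries with high Mir5105. At 24 h within (+)-JQ1, 0 members were called (1 higher and 0 lower at an unadjusted p under 0.05), against 0.101% of all genes higher and 2.05% lower. Within (−)-JQ1 the dose was called for 0 members at 12 h (3 higher, 0 lower unadjusted) and 0 at 24 h (0 higher, 7 lower unadjusted), where of all genes 0% were called at 12 h, and 0% higher and 0.00725% lower at 24 h.

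At 24 against 12 h within (+)-JQ1, over both doses, 6 members fell and 0 rose (20 and 0 at an unadjusted p under 0.05), where 3.69% of all genes fell and 8.81% rose. Over all genes 1216 rose and 509 fell, and after scaling by the median of ratios 996 and 778. The members that fell are the H3 genes Hist2h3c1 (log2 -0.67 ± 0.11 SE), Hist2h3c2 (-0.62 ± 0.11) and Hist2h3b (-0.52 ± 0.16), the H2A genes Hist2h2aa1 (-0.41 ± 0.09) and Hist1h2al (-0.30 ± 0.08) and the H2B gene Hist1h2bg (-0.72 ± 0.20). These H3 genes share sequence with each other, as do these H2A genes, so the 6 calls are not independent. The count is not firm: it was 22 without the 2 libraries with high Mir5105, 14 after scaling by the median of ratios, 15 without the second (+) library at 0.2 µM and 24 h, and 3 without the third of either 0.2 µM (+) group or the first (+) library at 0.5 µM and 24 h. Within (−)-JQ1, Hist2h2be fell (log2 -0.47 ± 0.11 SE) and 4 Hist1 H2A genes rose, where 4.62% of all genes fell and 11% rose (1520 higher and 637 lower, and 1219 and 1002 after scaling). These were Hist1h2an (log2 0.41 ± 0.11 SE), Hist1h2ai (0.39 ± 0.12), Hist1h2ah (0.37 ± 0.11) and Hist1h2ad (0.36 ± 0.12), and this count was not firm either. It was 9 without the first (−) library at 0.2 µM and 24 h, 0 without the second at 0.5 µM and 24 h, 1 without the third at 0.2 µM and 24 h, the first at 0.2 µM and 12 h or the second at 0.5 µM and 12 h, and 2 without the first at 0.5 µM and 24 h or the first or the third at 0.5 µM and 12 h.

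Other genes of histone supply were counted in lists written with earlier results of these data known. The background for these counts is 8.23%, 12.2%, 11% and 13.7% of all genes higher and 19.6%, 26.1%, 21.8% and 24.5% lower. Of 11 histone variant genes outside the clusters, whose mRNAs mostly carry poly(A) tails, 5, 6, 4 and 7 rose and 1, 2, 2 and 1 fell. H3f3b, which codes for a replacement H3 histone, was at 1197 ± 67.5, 1558 ± 57.5, 1133 ± 252 and 1551 ± 80.2 FPKM in (+) and 497 ± 24.7, 523 ± 15.2, 501 ± 75.1 and 570 ± 44.6 FPKM in (−)-JQ1 (SD, n = 3 each; log2 1.27, 1.57, 1.16 and 1.44, each ± 0.14 SE). H3f3a, which encodes the same protein, had log2 0.49, 0.65, 0.29 and 0.59 (each ± 0.14 SE) and passed in all but the third. H2afx, the variant of the DNA damage response, rose by log2 1.45, 1.82, 1.13 and 1.56 (each ± 0.12 SE), and H2afz, a variant found at promoters, passed in none (log2 0.39, 0.48, 0.28 and 0.33, each ± 0.31 SE). Of 15 tested genes of histone mRNA 3′ end processing and turnover, 1, 1, 0 and 1 rose and 0, 3, 2 and 2 fell. The one that rose was Slbp (log2 0.72, 0.72 and 0.62, each ± 0.15 SE, and 0.29 ± 0.15 in the third comparison, adjusted p = 0.148). The highest of that list, Srrt (log2 0.09, 0.08, -0.06 and 0.12, each ± 0.11 SE) and the cleavage stimulation factor gene Cstf2 (log2 -0.23, -0.14, -0.19 and -0.17, each ± 0.11 SE), passed in none. Of 9 tested genes of histone gene transcription, 0 rose and 1, 1, 3 and 2 fell. Npat, the coactivator of replication-dependent histone genes, had log2 -0.03, 0.04, 0.13 and -0.01 (each ± 0.12 SE), and Yy1, a zinc finger transcription factor, 0.0033, -0.07, -0.06 and 0.08 (each ± 0.11 SE), and neither passed in any. Of 12 histone chaperone genes, 1, 1, 0 and 1 rose and 1, 2, 5 and 3 fell. Nasp, an H1 and H3-H4 chaperone, passed at 12 h (log2 0.55 and 0.49, each ± 0.18 SE) but not at 24 h (0.09 and 0.36). Npm1, a nucleolar protein that also binds histones and the highest of these genes, was below 0 in all 4 (log2 -0.19, -0.21, -0.69 and -0.36, each ± 0.19 SE) and fell in the third alone (adjusted p = 0.00806).

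**Figure D5:**
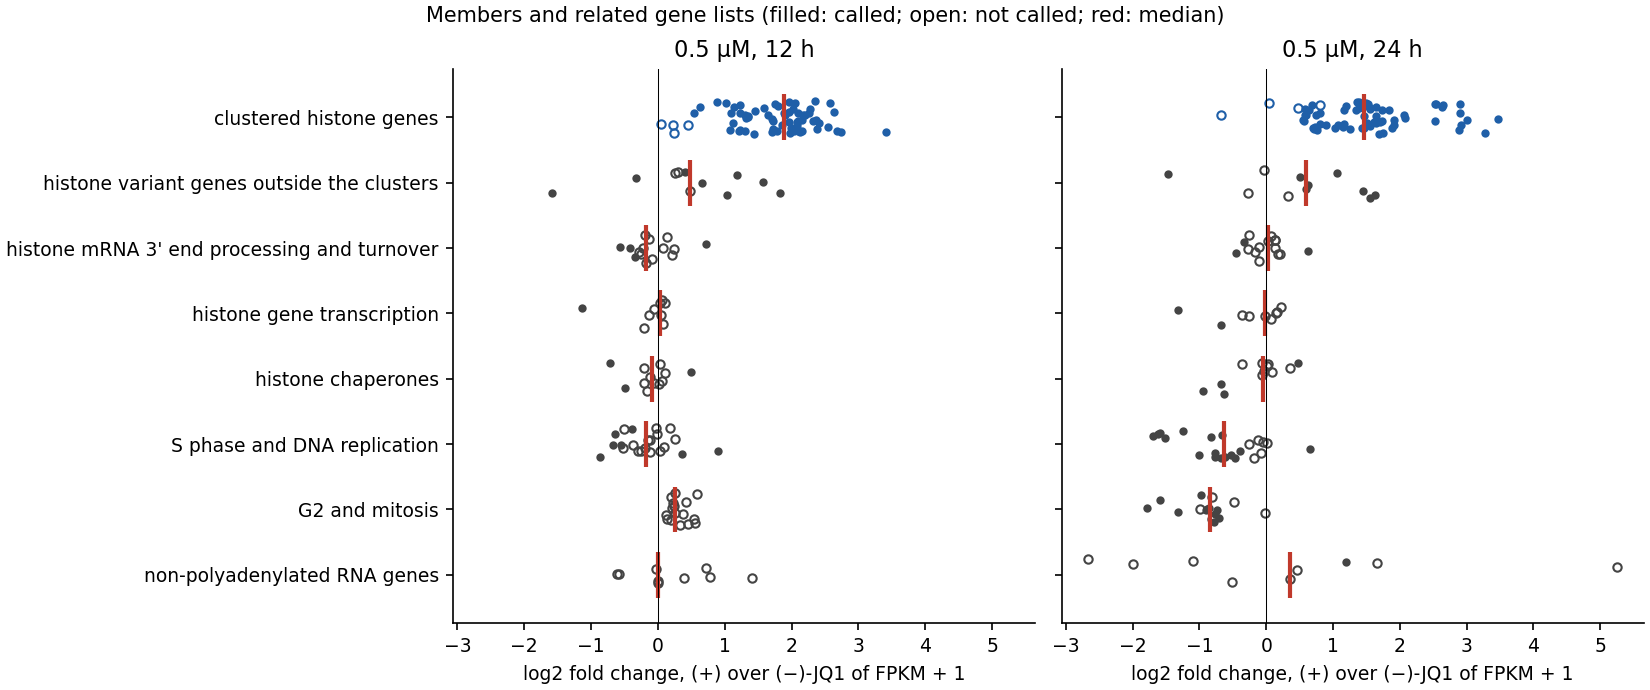
Log2 fold change of FPKM + 1, (+) over (−)-JQ1 (horizontal axis), of the tested clustered histone genes and of the genes of 7 related lists (rows) at 0.5 µM, at 12 h on the left and 24 h on the right. Filled points were called, open points were not, and red bars are medians. The clustered histone genes lie right of 0 with few exceptions, while S phase genes lie around or left of 0 and genes of G2 and mitosis turn to the left at 24 h.

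Since replication-dependent histone genes are S phase genes, other cell cycle genes were counted beside them. Of 22 tested genes of S phase and DNA replication, 1, 2, 0 and 1 rose and 6, 5, 16 and 15 fell, with a median log2 fold change of -0.26, -0.17, -0.70 and -0.64. Among all genes tested, 8.23%, 12.2%, 11% and 13.7% rose and 19.6%, 26.1%, 21.8% and 24.5% fell. The falls of S phase genes at 12 h were near that share. Pcna, the sliding clamp of DNA polymerase, was an exception and rose in all but the third (log2 0.79, 0.90, 0.30 and 0.65, each ± 0.12 SE), and Mcm7, of the replicative helicase, passed in none. Of 16 genes of G2 and mitosis, 0 rose in any and 0, 0, 11 and 11 fell. Top2a, which untangles chromosomes, had log2 0.07, 0.45, -1.67 and -1.78 (each ± 0.40 SE) and fell at 24 h, as did Ccna2, which codes for cyclin A (log2 0.07, 0.38, -1.07 and -1.32, each ± 0.32 SE).

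Other values moved with the enantiomer beside the histone genes, and their part in the result was not tested. For the enantiomer comparisons, 8.23%, 12.2%, 11% and 13.7% of all genes rose and 19.6%, 26.1%, 21.8% and 24.5% fell. The 11 genes of RNAs that carry no poly(A) tail, a sign of how strictly poly(A) was selected, summed to 1123 to 4136 FPKM in (+) (median 1547) and 699 to 2441 FPKM in (−)-JQ1 (median 1175), ranges that overlap. Of the 9 tested, 0, 0, 0 and 1 rose and 0 fell. Rnu6 had log2 0.32, 0.72, 0.46 and 0.46 (each ± 0.30 SE) and Rn7sk 1.01, 0.78, 0.85 and 1.66 (each ± 0.79 SE), and neither passed. At 24 against 12 h, 2 of the 9 fell and 0 rose within either enantiomer. Rn7sk averaged 270 to 596 FPKM in the 12 h groups and 20.2 to 75.6 FPKM in the 24 h groups. In every group except (+) at 0.5 µM and 24 h, the library highest in these RNAs was also highest in the member sum. Their part in the change of members between times was not tested. Of 9 oligodendrocyte markers, 7, 8, 6 and 8 fell, and they summed to 415 to 1195 FPKM in (+) and 1504 to 2140 FPKM in (−)-JQ1. Of 10 neural progenitor markers, 5, 5, 3 and 7 rose and 1, 1, 1 and 2 fell, and they summed to 4177 to 7180 FPKM in (+) and 2947 to 5181 FPKM in (−)-JQ1. Of 6 astrocyte markers, 4, 5, 4 and 5 fell (668 to 1348 FPKM in (+) and 1067 to 1866 in (−)-JQ1), and of 5 tested neuron markers 2 rose in each comparison and 2, 3, 1 and 2 fell (120 to 262 FPKM in (+) and 99.8 to 192 in (−)-JQ1). Of 3 tested markers of pericytes and fibroblasts 2, 3, 3 and 3 fell, and of 1 tested endothelial marker 0, 0, 1 and 1, at sums of at most 10.3 and 6.63 FPKM in any library. Of 8 housekeeping genes 1, 2, 1 and 1 rose and 0, 0, 1 and 0 fell. The highest of them passed in none: Actb, of the cytoskeleton, had log2 -0.08, -0.11, -0.08 and -0.32 (each ± 0.27 SE), and Rplp0, of the ribosome, had -0.10, -0.04, -0.27 and -0.10 (each ± 0.14 SE).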

How the data were processed

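Poly(A)-selected, DNase-treated RNA was reverse transcribed with random hexamers and sequenced as 50-base single ends, per the labels' protocols. FPKM values per gene are used as the authors deposited them. Per the submitters' processing notes FastQC, TopHat2 and build mm9 were used. Versions, the program that computed FPKM, its annotation and its treatment of reads with several origins are not given in the sources used here. Read numbers behind FPKM are unknown, so no counting interval is given.

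Of 26694 entries per library, 58 of repeated symbols were dropped. The 13801 genes that reached 1 FPKM in 3 or more of the 24 libraries were tested on log2(FPKM + 1) with limma 3.58.1 (R 4.3.3), with 8 group means, 16 residual degrees of freedom, moderated variances with trend and robust settings, and Benjamini-Hochberg adjustment within each of 14 comparisons at 0.05. Fold changes on this scale understate those of low genes. The filter counted libraries of both enantiomers, so a low member could be tested through (+)-JQ1 alone. Standard errors come from the spread pooled over all 8 groups. On simulated data made from these libraries, 50.7% to 64.2% of genes changed 1.5-fold were recovered, 86.6% to 94.0% of those changed 2-fold and 95.5% to 100% of those changed 4-fold. The changed genes were drawn only from those above a set mean level. The rates therefore do not cover low members such as Hist4h4 and the H3 genes of Hist1.

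Members and gene lists were chosen with earlier results of these data known. Named are the 4 members of each class with the highest mean, all of Hist3 and Hist4, those called in none of the main comparisons or in a dose or time comparison, and the 2 largest and 2 smallest changes per comparison. Of each related list the 2 highest genes are named, with H2afx, H2afz, H3f3b, Slbp, Npat, Pcna and Hexim1, and any other gene named was singled out after its values were seen. Stem-loops and shared 50-base stretches were read from GENCODE transcripts and promoters from RefSeq, both of GRCm38, and neither is the build of the files. Genes whose spans overlap that of a member were not counted as sharing its stretches. Alternatives were pseudocounts of 0.1 and 0.5, no filter, at least 1 FPKM in 12 libraries, median-of-ratios scaling, only the groups compared, a replicate block, no high-Mir5105 libraries, class sums without the highest member, and each library left out.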

Additional observations from a re-analysis of the deposited data

How the results depend on the processing

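The members called higher in (+) against (−)-JQ1 stayed within 1.5 times the main counts under all settings run: 59 to 61, 61 to 63, 52 to 62 and 59 to 63 with single libraries left out, and 57 to 62, 59 to 64, 45 to 61 and 59 to 64 otherwise. The main counts of members called lower are 0, but Hist1h2ao was called lower, a count of 1, in the 24 h comparisons at both doses once the 2 libraries with high Mir5105 were dropped, and at 0.5 µM once only the groups compared were fitted. Dropping single libraries gave 0 to 1 at the lower dose and 24 h.

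For 0.5 against 0.2 µM within (+)-JQ1 at 12 h the 2 calls became 1 with only the groups compared, 4 without the high-Mir5105 libraries and 0 to 2 with single libraries left out, and within (−)-JQ1 at 24 h the lower calls were 0 to 1. For 24 against 12 h within (+)-JQ1 the 6 lower calls became 14 after scaling, 22 without the high-Mir5105 libraries and 3 to 15 with single libraries left out. Within (−)-JQ1 the 4 higher calls became 1 with only the groups compared, 9 without the high-Mir5105 libraries and 0 to 9 with single libraries left out, and the 1 lower call became 3 without the high-Mir5105 libraries and 1 to 2 with single libraries left out. The causes were not tested.

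The log2 ratio of the mean H1 sums was 2.35, 2.68, 2.53 and 2.27 without the highest gene, Hist1h1c, against 1.67, 1.83, 1.74 and 1.97 with it, and 2.07 after scaling at 0.5 µM and 24 h. That of H2A, with 1.34, 1.79, 0.94 and 1.19, was 1.23, 1.61 and 1.01 without the highest gene in the first, second and last comparison, 1.91 and 1.29 after scaling in the second and the last, and 0.64 without the high-Mir5105 libraries in the third. That of H3 at 0.5 µM and 12 h was 2.50 without the highest gene, against 2.34 with it. That of H4 at 0.2 µM and 24 h was 1.99 to 2.73 with single libraries left out, against 2.51.

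Only uncalled members turned sign. Hist4h4 at 0.2 µM and 12 h had log2 0.040 after scaling, and with single libraries left out -0.041 to 0.0065, -0.048 to 0.20, -0.0019 to 0.16 and -0.054 to 0.22 in the 4 comparisons. Hist1h2ao ranged from -0.14 to 0.27 at 0.2 µM and 12 h and from -1.31 to 0.037 at 0.2 µM and 24 h, Hist2h4 from -0.25 to 0.32 at 0.2 µM and 12 h, and Hist3h2bb-ps from -0.0049 to 0.37 at 0.2 µM and 24 h. Counted over the named members and settings, 1551 values kept direction and side of the threshold, 28 became called and 23 lost the call.

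Whether the replicate numbers pair the libraries was not settled: the correlation of same-numbered libraries' deviations from the group means was over 0.1 in 7 of 12 pairs and not in the other 5 (-0.345 to 0.358), and 7 of 12 (+) libraries correlated best with their own number. With the number as a replicate block the members called higher were 60, 63, 56 and 64, and the lower calls at 24 against 12 h within (+)-JQ1 were 10. Values near the detection limit, as of Hist2h4 and Hist1h1b, limit what these libraries can show.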
